A study of Mus musculus with 6 samples.

Results

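Sox proteins are transcription factors that bind DNA through an HMG box, a domain that inserts into the minor groove and bends the helix. They fall into subgroups with similar HMG boxes that read nearly the same short core, so a motif match names a family of possible binders rather than 1 protein. In the developing kidney Sox9 is known from the tips of the ureteric epithelium, Sox4 is a SoxC factor active in many progenitors, and Sox17 and Sox18 are known from endothelium. Distal elements, open stretches away from promoters, are the class of regulatory DNA in which Sox factors are most often studied.

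The regions described here were those of the deposited table that carried no promoter annotation, listed at least 1 transcription factor name beginning with Sox and listed no forkhead (Fox) name. The rule used annotation alone and no count. It gave 2700 of 43523 distinct regions, which is 6.20% of all regions and 9.18% of the 29426 distal ones. Another 1751 distal regions listed both families, 6983 listed a forkhead name with or without Sox, and 19743 listed neither. These served as comparisons.

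Accessibility was measured by ATAC-seq, in which the transposase Tn5 cuts open DNA and adds sequencing adapters, so that the count over a region reflects how open it was. The cells were nephron progenitors of CD1 mice, the mesenchymal cells of the outer kidney that form the nephrons. One group was E14.5, a stage of midgestation, and the other P0, the day of birth. Each group had 3 libraries, each from up to 24 pooled kidneys of 1 litter, and no genetic change or treatment was named for either. Cells were released by a limited digestion of 15 min and drawn out with magnetic beads against Itga8, an integrin of these progenitors that is also made by some stromal cells, and 50000 cells entered each reaction.

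Total counts in regions ran from 6492996 to 12292629 per library, and the median count per Sox region from 92 to 147. At most 1 Sox region had under 10 counts in any library. Of 14 progenitor markers, 8 had an open region at their start, Six2, Cited1 and Itga8 among them, and the summed level of these regions was 232 to 238 CPM at E14.5 and 200.4 to 260.1 CPM at P0. CPM are counts divided by a library size that TMM scaling sets from the bulk of regions, on the usual CPM scale. No listed region was matched to the starts of Pax2, Meox1, Hoxd11, Hoxa11, Tmem100 and Uncx, which does not show that these starts were closed. Open starts were also found for 7 of 11 early nephron, 5 of 10 stromal, 2 of 8 endothelial, 5 of 9 ureteric and 4 of 6 podocyte markers, and for 0 of the 7 immune markers, of 9, that could be matched, Ptprc included. Sox regions did lie inside immune genes: one within Ptprc stood at 15.1 ± 0.354 CPM at E14.5 and 12.4 ± 0.880 at P0, and one within Spi1 at 15.2 ± 2.69 and 13.3 ± 1.56 (SD, n = 3 each), near the Sox median of 12.6 CPM. The summed ranges of the 2 stages overlapped for each of these lists with an open start (stroma 116 to 152 and 123 to 163 CPM, endothelium 46.5 to 53.2 and 43.4 to 54.5 CPM, ureteric 137 to 164 and 115 to 146 CPM). Their part in the results was not tested. In such bulk libraries a change in the share of cells that hold a region open and a change in its openness per cell cannot be told apart.

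The motif matches behind the rule are shown first, where a sequence could be read. The table gave the position and strand of each match, and 13 matches of 8 Sox regions lay inside windows of the RefSeq promoter table (GRCm38.p6, the assembly also called mm10). Of these, 6 from 6 regions are printed 5′ to 3′ on the listed strand with 3 bases added on each side, and capitals mark the Sox core CTTTGT or ATTGT. As these windows lie at gene starts, the printed sites stand near starts, although their regions carried no promoter annotation. In all, 50 Sox regions overlapped such a window. The printed set was chosen to show sites with each core and a site without one.
Sox3 match at Add2, chr6:86028693-86028710, plus strand: cccggccCTTTGTcatca
Sox10 match at Bcar3, chr3:122483476-122483493, minus strand: gtggCTTTGTttgcttct
Sox9 match at Gm32898, chr10:94623728-94623745, minus strand: ctcCTTTGTttttccaat
Sox4 match at Gm46609, chr17:87613566-87613584, minus strand: cgctCTTTGTtcccaagtc
Sox10 match at Dbx2, chr15:95654794-95654816, minus strand: ctcattgccttcATTGTtggccg
Sox9 match at Gm35189, chr12:77053244-77053266, plus strand: gcgctaaaagaacttttgttcga

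The Gm46609 region, a predicted gene, showed how 1 stretch of DNA gathers several names: its Sox3, Sox4, Sox9 and Sox10 matches all sat on the same CTTTGT. At Add2, the gene of the membrane skeleton protein beta-adducin, Sox2 and Sox3 shared a core in the same way. The site at Gm35189 held neither core, and its match had the wide form of the Sox9 matrix. None of the 6 regions passed the test of stage described below. Their log2 fold changes were -0.50 at Add2, 0.10 at Bcar3, -0.31 at Gm32898, -0.33 at Gm46609, -0.38 at Dbx2 and 0.10 at Gm35189, with edgeR adjusted p of 0.280, 0.890, 0.522, 0.398, 0.334 and 0.889.

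Across all classes, 512 Sox matches lay inside RefSeq windows, and 73.4% of them held CTTTGT or ATTGT on either strand. The same cores stood in 2.88% of the 18-base stretches that tile these windows end to end, and in 42.9% of whole windows of 300 bases. Every match with a core held it on the listed strand. The majority letters, which single matches need not all hold, were CCTTTGT for Sox3 and Sox10 matches in 12-base form, CCTTTGTNC for Sox4, CTTTGTTCT for Sox9 in 12-base form, TATTGTTT for Sox5 and GCCATTNT for Sox17, where N stands for any base. A core was found in 91.0% of these Sox10 matches, 87.4% of Sox3, 67.6% of Sox9, 66.0% of Sox4, 55.6% of Sox17 and each of the 14 Sox5 matches. In the 17-base forms it was found in 52.6% of Sox10, 52.2% of Sox9 and 39.1% of Sox2 matches.

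Within the 2700 regions the Sox names overlapped heavily. Sox10 was listed in 1061 regions, Sox9 in 997, Sox2 in 972, Sox4 in 857, Sox3 in 695, Sox17 in 245, Sox5 in 216 and Sox18 in 172. A single name stood in 1503 regions, and 1063 listed more than 1 subgroup. Matches that overlapped or lay within 10 bases were joined into 1 site, and on that count 2440 regions had 1 Sox site and 260 had 2 or more. The 5619 matches gathered toward the region centres, with 29.0% in the middle one of 5 equal bins along the region, 12.7% in the first bin and 13.8% in the last, and a median distance of 286 bp to the midpoint. The best Sox score of a region ran from 12 to 19.6, with a median of 12.9.

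The Sox regions lay mostly between genes: 1575 (58.3%) were intergenic, 902 (33.4%) intronic and 223 (8.26%) overlapped an exon. The shares for regions with neither family were 56.7%, 34.6% and 8.70%. Their median length was 1663 bp, close to the 1684 bp of forkhead regions and above the 1387 bp of regions with neither. The part of length in the motif lists was not tested. Enhancers of the FANTOM catalogue were annotated in 233 Sox regions (8.63%, against 8.80% for neither family), in a column whose header names mm9. VISTA elements, which were tested for enhancer activity in mouse embryos, were annotated in 41 (1.52%, against 0.790% for neither and 0.802% for forkhead). These shares are descriptions and were not tested. The names most often listed beside Sox were Maz (447 regions, 16.6%), Sall factors (347, 12.9%) and Smad factors (284, 10.5%). Six2, the factor that maintains nephron progenitors, was listed in 111 (4.11%, against 3.82% of forkhead regions and 2.84% of regions with neither family).

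The comparison of stages asked which of these elements differed in openness between progenitors of the early and the newborn kidney. Of the 2700 regions, 143 (5.30%) passed the test, 54 higher at P0 (2.00%) and 89 lower (3.30%). The test was edgeR's quasi-likelihood F test over all 43523 regions with a Benjamini-Hochberg adjusted p under 0.05. Over all regions it called 2059, or 4.73%, with 1.79% higher and 2.94% lower. The share of Sox regions was near that background, which includes promoters. It was below the 6.59% of all distal regions (2.46% higher, 4.13% lower). The higher Sox regions rose by 0.71 to 1.98 on the log2 scale (median 1.03), and the lower ones ran from -2.59 to -0.73 (median -1.19). At least 2-fold changes were seen in 98 of the 143. The median log2 fold change of all 2700 was 0.09 with quartiles of -0.18 and 0.36, against 0.01 for all regions and 0.12 for distal regions with neither family.

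At an unadjusted p under 0.05 there were 615 Sox regions (22.8%), against 18.7% of all regions, promoters included, and 23.5% of all distal regions. Groups that did not overlap, with every P0 library above or below every E14.5 library, were found in 704 (26.1%), against 24.2% of all regions and 27.8% of all distal regions. On both measures the Sox share lay above that of all regions and below that of all distal regions. All 143 called regions were among them. The count depended on single libraries: it was 20 (3 higher, 17 lower) without E14.5 replicate 3, 27 (4 and 23) when P0 replicate 1 was left out and 79 (16 and 63) when E14.5 replicate 1 was. Without E14.5 replicate 2 it was 228, of which 136 were higher and 92 lower, so the majority direction turned. Over all regions the same omissions gave 0.779%, 1.09%, 2.53% and 6.86% called, against 0.741%, 1.00%, 2.93% and 8.44% of Sox regions.

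**Figure D1:**
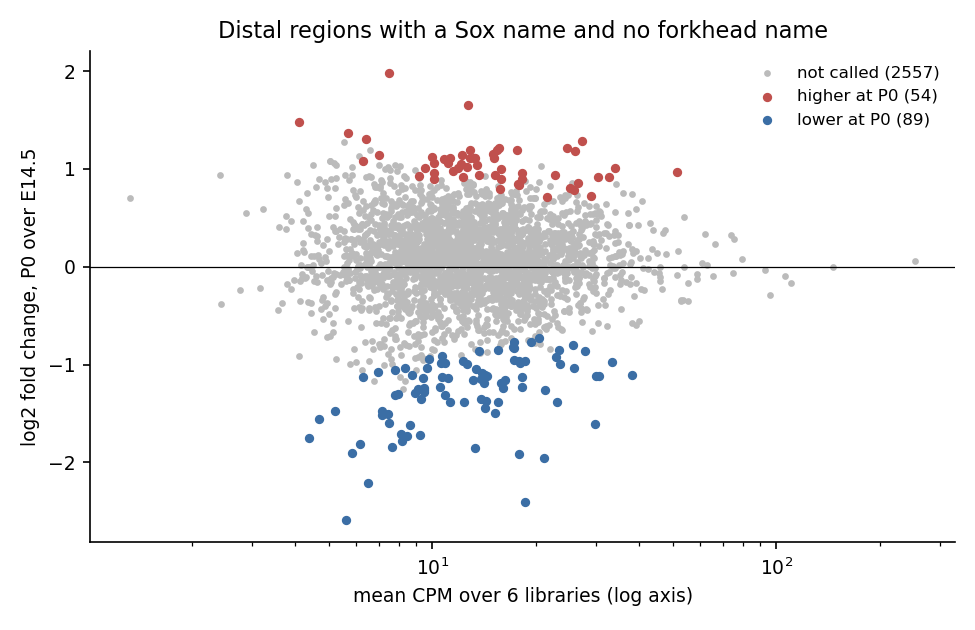
Each point is 1 of the 2700 Sox regions, with its mean CPM over the 6 libraries on a log axis and its log2 fold change of P0 over E14.5. The 54 regions called higher (red) and 89 called lower (blue) lie on both sides of 0, and the lower ones reach -2.59.

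Beside the other distal classes, Sox regions had the gain share of forkhead regions and a loss share nearer to that of regions with neither family. Forkhead regions were called in 8.89% (140 higher, 2.00%; 481 lower, 6.89%), and regions with both families in 8.05% (34 higher, 1.94%; 107 lower, 6.11%). Regions with neither family were called in 5.95% (530 higher, 2.68%; 645 lower, 3.27%). Gains made up 37.8% of the calls among Sox regions, 22.5% among forkhead regions and 45.1% among regions with neither, beside 37.8% of the calls over all regions and 37.3% over all distal regions. Without E14.5 replicate 2 these shares were 59.6%, 40.9% and 63.5%, and without E14.5 replicate 3 they were 15.0%, 2.56% and 24.7%. The differences between these shares were not tested.

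**Figure D2:**
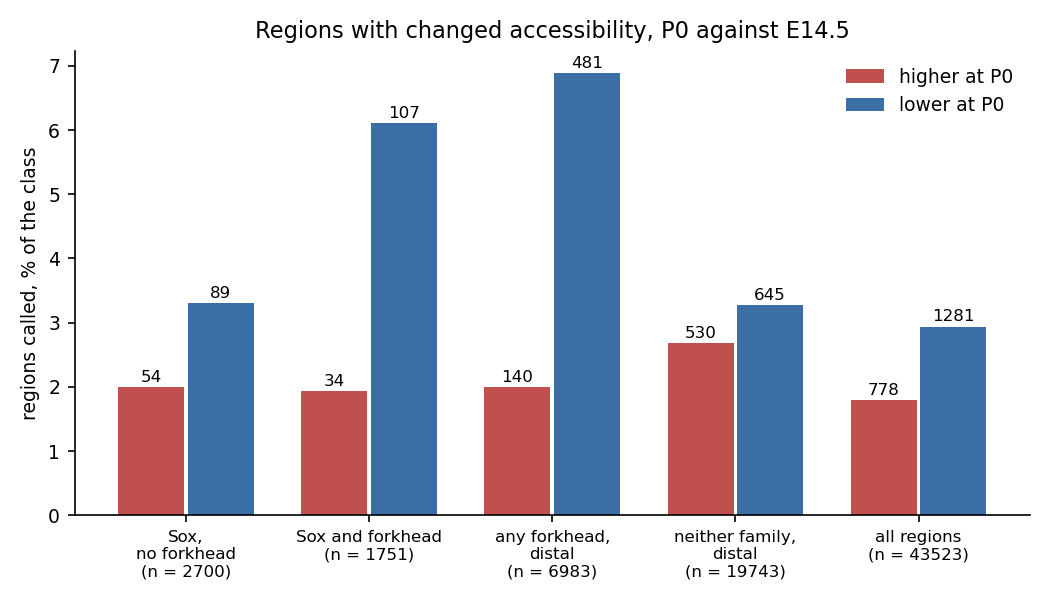
Bars give the percentage of each class called higher (red) or lower (blue) at P0 by edgeR at an adjusted p under 0.05, with the number of regions above each bar. Sox regions without a forkhead name stand at 2.00% higher and 3.30% lower, and forkhead regions at 2.00% and 6.89%.

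In Sox regions, forkhead regions and those with neither family alike, losses made up their smallest share in the longest length class. Among Sox regions the share of losses was similar at each level of openness. These differences were not tested, and the longest Sox regions had 14 losses among 888. In the 4 length classes, under 1000, to 1500, to 2000 and above 2000 bp, 4.28%, 4.16%, 4.05% and 1.58% of Sox regions were lower, beside 6.02%, 8.78%, 7.27% and 5.40% of forkhead regions and 3.01%, 3.80%, 3.66% and 2.25% of regions with neither family. In 4 equal bins of mean CPM, from the least to the most open, the lower share of Sox regions was 3.41%, 2.96%, 3.41% and 3.41%, beside 6.53% to 7.13% of forkhead regions and 2.47% to 4.01% of regions with neither. The higher share of Sox regions was 0.889%, 2.07%, 2.67% and 2.37% in the same bins, beside 1.33% to 2.36% and 1.60% to 4.09%.

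Summed over regions, each library gave 1 value, and only these values bear a test of the classes. The share of distal counts that fell in Sox regions was 9.40%, 9.55% and 9.53% at E14.5 and 9.48%, 9.60% and 9.45% at P0, in the order of the replicate numbers, which holds for every trio of values given here. The groups overlapped, with means of 9.49% ± 0.0775 and 9.51% ± 0.0774 (SD, n = 3 each; exact two-sided permutation p = 1.0). Mean log2 CPM of Sox regions exceeded that of regions with neither family by 0.16, 0.19 and 0.19 at E14.5 and by 0.15, 0.16 and 0.15 at P0. The means were 0.18 ± 0.019 and 0.15 ± 0.010 (SD, n = 3 each), and the difference of -0.028 was not past the threshold (exact permutation p = 0.2, adjusted over the 3 relations 0.3).

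Set against forkhead regions, Sox regions stood higher in each P0 library than in any E14.5 library. Their mean log2 CPM stood below that of forkhead regions by 0.06, 0.10 and 0.08 in the E14.5 libraries, and the differences at P0 were 0.01, 0.01 and -0.04. The means were -0.082 ± 0.020 and -0.006 ± 0.031 (SD, n = 3 each), a difference of 0.076. The exact permutation p was 0.1, the smallest that 3 libraries against 3 allow, and 0.3 adjusted over the 3 relations, so this design could not pass 0.05. The difference was 0.0654 to 0.0934 when 1 library was left out, and 0.0814 among regions of 1000 to 2500 bp.

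**Figure D3:**
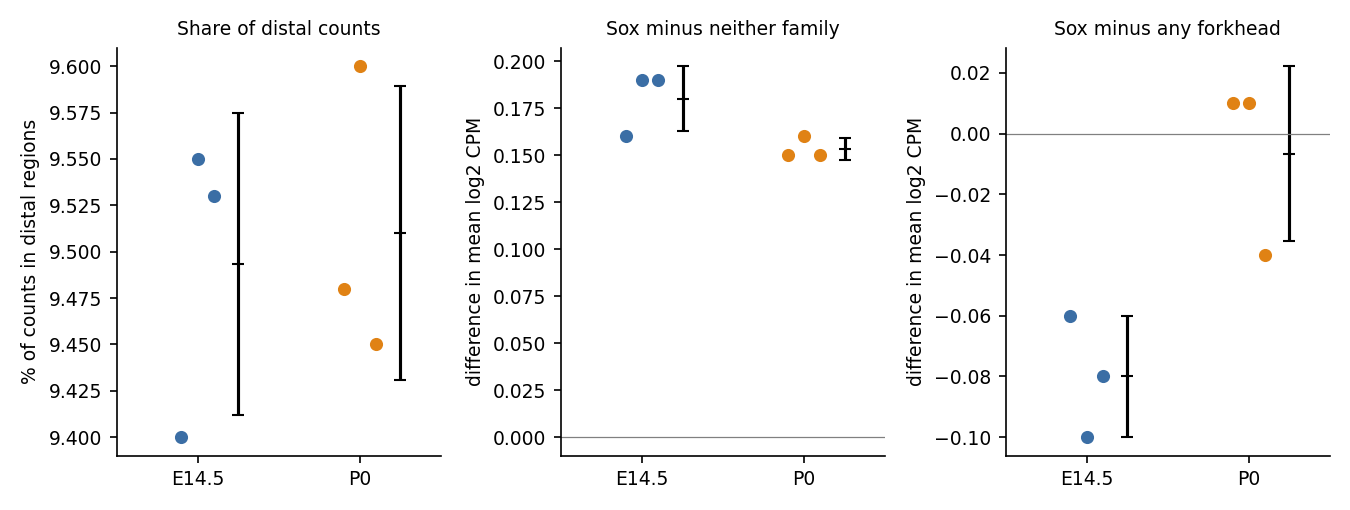
Points are libraries of E14.5 (blue) and P0 (orange), and the black bars give the mean and SD of 3. The left panel gives the share of distal counts in Sox regions, the middle and right panels the mean log2 CPM of Sox regions minus that of the other class, and in the right panel alone the groups do not overlap, between -0.10 and -0.06 at E14.5 and -0.04 and 0.01 at P0. The left axis does not begin at 0.

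The largest gain lay at chr17:64827004-64828148, between Man2a1, a Golgi mannosidase, and the predicted gene 4930583I09Rik, 4.38 kb away, with a single Sox2 match. It had 2.49, 3.59 and 2.92 CPM at E14.5 and 13.6, 12.1 and 10.2 CPM at P0. The groups lay far apart, and the log2 fold change was 1.98 (SE 0.29, edgeR adjusted p = 0.00252). A Sox5 region at chr11:7445277-7446337, in the interval between Igfbp3, which binds insulin-like growth factors, and Tns3, a focal adhesion protein, rose from 59, 82 and 35 counts to 218, 127 and 203 (log2 fold change 1.65, SE 0.26, adjusted p = 0.00347 by edgeR). Both kept their call in all 14 other fits.

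Among the other 8 largest gains, 5 lay in introns: in Plch1 (chr3:63897148-63897583), Sv2b (chr7:75175989-75176751), Chst11 (chr10:82999383-83000710), Usf3 (chr16:44210341-44211620) and Pde4b (chr4:102161567-102162655). Sv2b encodes a synaptic vesicle glycoprotein, Chst11 a chondroitin sulfotransferase and Pde4b a phosphodiesterase of cyclic AMP. The Pde4b region, with Sox9 and Sox4 names, went from 8.30, 7.79 and 7.47 to 24.4, 15.9 and 13.5 CPM (log2 fold change 1.19). The intergenic gains lay between Usp25 and Cxadr (chr16:77719058-77720407), between Mctp2 and Rgma (chr7:73196362-73197998) and between Lum and Kera (chr10:97601798-97603661). Cxadr is a junction protein, Rgma a co-receptor of bone morphogenetic proteins (BMPs), and Lum and Kera are small proteoglycans of the matrix. The Lum to Kera region listed Sox2, Sox3, Sox4, Sox9 and Sox10 and stood at 12.2, 11.1 and 8.64 CPM at E14.5 and 22.9, 31.5 and 18.9 CPM at P0 (log2 fold change 1.19). These 8 had log2 fold changes of 1.19 to 1.48 and adjusted p of 0.00638 to 0.0437, and each lost its call in the fit that left out E14.5 replicate 3 and in the one that left out P0 replicate 1. For the weakest, in Chst11, adjusted p was 0.164 without E14.5 replicate 1.

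Losses reached further than gains. At chr12:64335088-64335868, between the synaptic adhesion gene Lrfn5 and Fscb, 7.83, 9.90 and 11.2 CPM fell to 2.29, 1.51 and 1.03 CPM (log2 fold change -2.59, SE 0.36, edgeR adjusted p = 0.00213). This region rests on 10 to 22 counts in each P0 library. No P0 library came near the E14.5 range.

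Other large losses were at chr1:124904117-124905124, between Dpp10 and Actr3 (log2 fold change -2.21), and at chr18:86949841-86951582, between Cbln2 and Socs6. The latter, a Sox5 region, had 31.1, 27.7 and 41.8 CPM at E14.5 and 8.54, 9.38 and 7.97 CPM at P0 (log2 fold change -1.96, SE 0.22, adjusted p = 0.00109). Dpp10 modulates potassium channels, Actr3 is a subunit of the Arp2/3 complex that branches actin, and Socs6 is a suppressor of cytokine signalling.

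The Sox18 region at chr2:132992614-132993634 lay between Fermt1, an integrin activator, and Bmp2, a BMP ligand, at 46.6 and 559 kb. It stood at 19.5, 16.6 and 26.3 CPM at E14.5 and at 5.73, 5.60 and 5.84 CPM at P0, where the 3 libraries were nearly level (log2 fold change -1.85, SE 0.24, adjusted p = 0.00160). The Sox10 region at chr9:24091331-24092539 lay 5.37 kb from Npsr1, a neuropeptide receptor gene, and 606 kb from Bmper, which binds BMPs. It fell from 13.2, 11.9 and 11.0 to 4.16, 2.42 and 3.32 CPM (log2 fold change -1.84). Such distances do not assign a region to a gene.

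Of the remaining losses, the one in Spag17, a gene of the ciliary axoneme (chr3:99970723-99971712), and the one between Rorb and Anxa1 (chr19:19544719-19545943) each listed Sox17 alone. The last lay between Tns3 and Pkd1l1 (chr11:8779296-8780035), so that the interval on one side of Tns3 held a gain and the one on its other side a loss. Their log2 fold changes were -1.90, -1.81 and -1.78. The Spag17 loss was not called without E14.5 replicate 3 (adjusted p = 0.0685) or P0 replicate 1, nor the Rorb loss without E14.5 replicate 3 (adjusted p = 0.0673). The other 6 losses described kept their call in each of the 14 other fits.

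**Figure D4:**
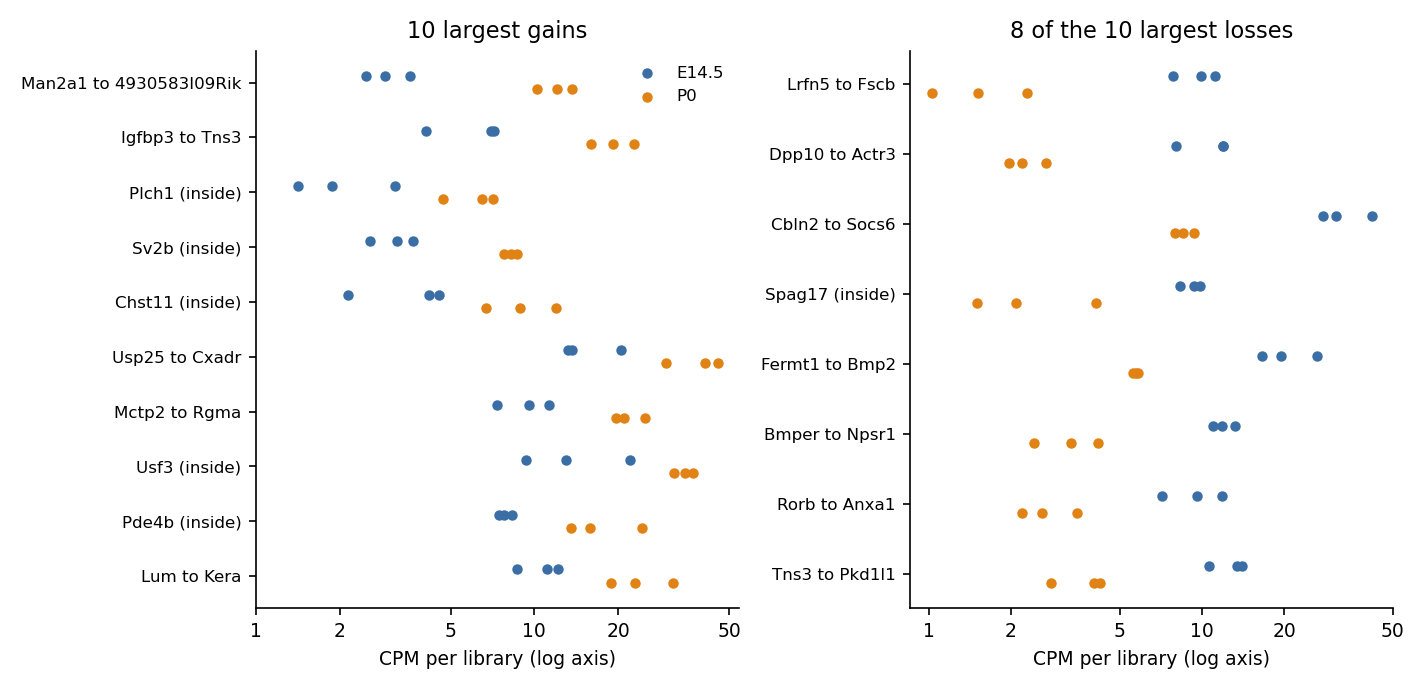
Points are the CPM of single libraries (log axis, E14.5 blue, P0 orange) at the 10 largest gains and 8 of the 10 largest losses, each row labelled by the gene it lies in or its flanking protein-coding genes. No row has overlapping groups, and the losses reach 1.03 CPM at P0.

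Called shares of the Sox subgroups stand beside 4.73% of all regions (1.79% higher, 2.94% lower) and 6.59% of all distal regions. SoxB1 names (Sox2, Sox3) stood in 1336 regions with 69 called (30 higher, 39 lower), SoxC (Sox4) in 857 with 37 (21 and 16), and SoxD (Sox5) in 216 with 14 (5 and 9). SoxE names (Sox9, Sox10) stood in 1500 with 67 (27 and 40), and SoxF names (Sox17, Sox18) in 411 with 21 (5 and 16). These sets share regions. Counting those with names of 1 subgroup alone, SoxF had 15 calls among 220 regions (6.82%), 1 higher and 14 lower. SoxD alone had 5 higher and 8 lower among 167 (7.78%), SoxB1 alone 10 and 23 among 501 (6.59%), SoxE alone 10 and 21 among 639 (4.85%), and SoxC alone 3 and 0 among 110 (2.73%).

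The SoxF split was picked out after its values were seen, and its difference from the other subgroups was not tested. The split was 8 higher and 12 lower with E14.5 replicate 2 left out, 0 and 3 with E14.5 replicate 3 left out, and 0 and 4 with P0 replicate 1 left out. The median log2 fold change of the 220 regions was 0.07, against 0.09 for all Sox regions.

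**Figure D5:**
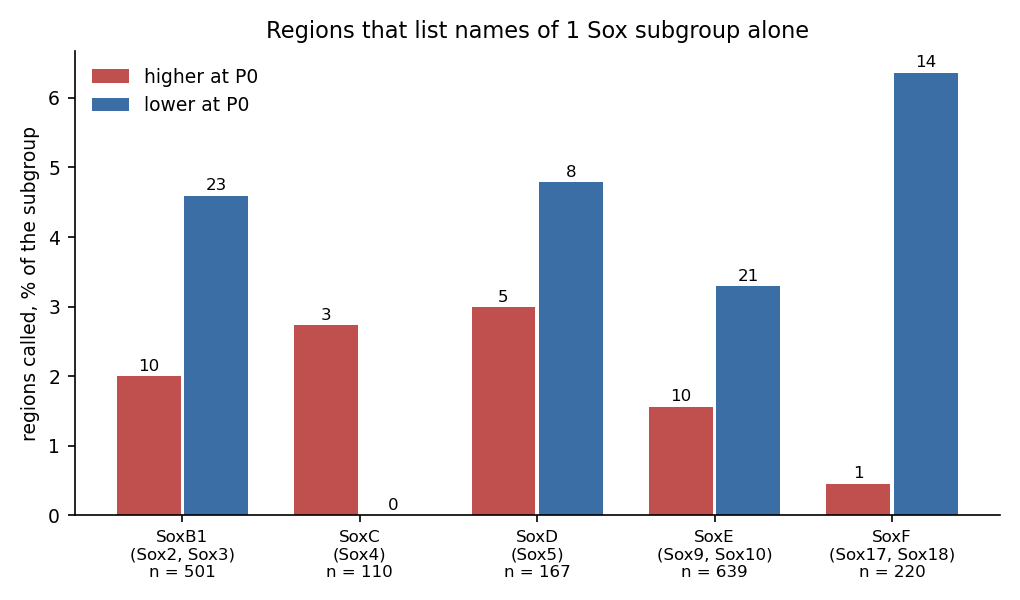
Bars give the percentage of regions called higher (red) or lower (blue) at P0 among regions whose Sox names belong to 1 subgroup alone, with the numbers of regions above the bars. SoxF regions show 1 gain and 14 losses, and SoxC regions 3 gains and no loss.

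The calls were also counted by other annotation, again beside 4.73% of all regions and 6.59% of all distal regions. Regions whose only listed names were Sox names had 93 calls among 1504 (6.18%; 37 higher, 56 lower). A Meis name, the family of homeobox factors strong in stroma, stood beside Sox in 200 regions with 0 higher and 8 lower, but there were 9 higher and 8 lower with E14.5 replicate 2 left out, no call with E14.5 replicate 3 left out, and 1 loss with P0 replicate 1 left out. Smad names, the effectors of BMP and TGF-beta signalling, stood in 284 with 2 higher and 5 lower. Of the 223 exonic regions 3 were called (1.35%), and of the 233 with a FANTOM enhancer 4 (1.72%; 2 higher, 2 lower). With 2 or more Sox sites 10 of 260 were called (3.85%), against 133 of 2440 with 1 site (5.45%). In 4 bins of the best Sox score, from low to high, the called shares were 5.56%, 7.34%, 4.53% and 3.56%.

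None of the 41 regions with a VISTA element was called by edgeR, beside 4.73% of all regions, and 3 reached an unadjusted p under 0.05, beside 18.7% of all regions. These were chr19:53411383-53412633, between Smndc1 and Dusp5, which was 1.63-fold higher at P0 (adjusted p = 0.120), chr1:193448751-193450709, between Camk1g and Plxna2, at 0.699-fold (adjusted p = 0.149), and chr2:137853294-137855416, between the Notch ligand gene Jag1 and Btbd3, at 0.732-fold (adjusted p = 0.252). They were named after their values were seen. The median log2 fold change of the 41 was -0.09.

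The 5 most open Sox regions all lay on chromosome 8, between 19979597 and 20825038, among predicted genes and beta-defensin genes. This span holds multigene families with near-identical copies, and how reads were shared between copies is not given in the sources used here, so its levels are uncertain. The highest, at chr8:20328339-20332377, had 295, 178 and 274 CPM at E14.5 and 266, 349 and 161 CPM at P0. E14.5 replicate 2 and P0 replicate 3 were low and the groups overlapped fully. The 7 Sox regions of the span took 1.48% to 2.39% of the counts in Sox regions. None of the 7 was called, beside 4.73% of all regions, nor was any of all 49 distal regions of the span.

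Kidney genes were examined through 11 lists with 140 different genes: progenitor, early nephron, stromal, endothelial, ureteric, immune and podocyte markers, Sox genes, and the Wnt, the Fgf and Bmp, and developmental timing lists. Within the body or 50 kb of 26 of these genes lay 28 Sox regions, and edgeR called 0 of them, beside 4.73% of all regions, a share at which few calls among 28 could be seen. At an unadjusted p under 0.05 there were 6 of the 28, beside 18.7% of all regions, and DESeq2 called 2. Their median log2 fold change was -0.03, against 0.09 for all Sox regions. The Wnt list had 8 regions at 7 of its 31 genes, the ureteric list 4 at 4 of 9 and the stromal list 3 at 3 of 10, and the endothelial and podocyte lists had none.

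A pair of regions missed the threshold narrowly and are given for that reason, after their values were seen. One lay at chr2:9817647-9819596, 37.5 kb from Gata3, a zinc finger factor of the ureteric lineage, and had E14.5 counts of 119, 122 and 106 and P0 counts of 73, 35 and 82. It was 1.90-fold lower at P0 (log2 fold change -0.93, SE 0.25, edgeR adjusted p = 0.0501). The other lay inside Fzd6, a Wnt receptor gene, at chr15:39023083-39023999, with 26, 52 and 16 counts at E14.5 and 56, 68 and 96 at P0 (log2 fold change 1.28, SE 0.37, adjusted p = 0.0600). Across the 14 other fits adjusted p ran from 0.0273 to 0.196 for the first and from 0.0247 to 0.273 for the second.

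Wnt genes gave 2 further values at an unadjusted p under 0.05. Regions inside Lgr4 and Lgr5, which encode R-spondin receptors that strengthen Wnt signalling, had log2 fold changes of 0.56 at chr2:109941820-109943366 and 0.46 at chr10:115554845-115557451 (edgeR adjusted p of 0.172 and 0.213). Other regions of the Wnt list had values below 0: -0.58 near Sfrp1, which encodes a secreted Wnt inhibitor, -0.39 near the ligand gene Wnt11 and -0.34 inside Tcf7l2, a transcription factor of the pathway (adjusted p of 0.270, 0.309 and 0.538). The groups did not overlap at the regions near Sfrp1 and Wnt11, nor at those given inside Lgr4, Lgr5 and Fzd6, beside 24.2% of all regions. They overlapped inside Tcf7l2, near Wnt9b and at a further Lgr5 region, chr10:115579193-115580795, with a log2 fold change of 0.33 (edgeR adjusted p = 0.531). The median of the 8 regions was 0.18. A region 24.8 kb from H19, an imprinted transcript of embryonic growth, stood at 0.87 (adjusted p = 0.186), and one inside Bmper at 0.50 (adjusted p = 0.251). None passed.

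At the 14 progenitor genes there were only 2 Sox regions, neither of them called, and 2 regions are too few to read against the 4.73% of all regions called. The region 15.8 kb from Six2 had counts of 112, 148 and 127 at E14.5 and 147, 62 and 150 at P0, with overlapping groups and a log2 fold change of -0.16 (edgeR adjusted p = 0.775). That 45.5 kb from Itga8, the gene of the antigen used for selection, stood at -0.41 (adjusted p = 0.269). Near Lin28b, an RNA-binding regulator of developmental timing, 2 regions stood at 0.36 and -0.14. Of 19 Sox genes, 3 had a Sox region in their body, all uncalled: Sox5 (10.4 ± 0.555 CPM at E14.5 and 10.2 ± 1.33 at P0), Sox13 (11.4 ± 1.72 and 11.4 ± 3.32) and Sox6 (log2 fold change -0.01), with SD over n = 3 each.

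The authors' deposited table classed 92 of the Sox regions as opening and 67 as closing from E14.5 to P0, beside 1243 and 1081 of all 43523 regions. Opening was thus the more frequent class there, whereas the test used here called more Sox regions lower (89) than higher (54). All 54 regions called higher here were classed as opening there, and 65 of the 89 called lower as closing.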

How the data were processed

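ATAC-seq libraries of nephron progenitors were compared between E14.5 and P0, 3 litters each. The deposited table gave a whole-number count per region and library, per the file headers. The genome build is mm10 per the submitters' processing notes. The aligner, the peak caller, the motif set, the handling of duplicates and any shift for Tn5 are not given in the sources used here. The table also held the authors' log2 fold change and adjusted p-value, which the authors computed in a way no header describes, and a class (opening, closing or stable). Only the class is quoted. Of 45489 rows, 43523 were distinct regions.

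Counts were tested with edgeR 4.0.16 (R 4.3.3; TMM, filterByExpr, which removed 0 regions, quasi-likelihood F test, Benjamini-Hochberg over all regions, threshold 0.05). Log2 CPM used a prior count of 1. DESeq2 1.42.0 and limma-voom (limma 3.58.1) were alternatives, beside other scalings, filters, thresholds, member rules and the omission of each library. On simulated data the edgeR fit recovered only a minority of the changed regions and its share of false calls in the 1 simulation was above the nominal rate. Libraries are litters by the design text, and shares of counts and class differences were tested by exact permutation over libraries. Members, lists and tests were chosen with earlier results of these data known. Regions named were the 10 largest changes in each direction among called regions without overlap of groups, called regions at list genes, the 5 most open, and up to 2 at Sox genes; 2 of the largest losses are not reported here. Genes and start windows come from RefSeq, GRCm38.p6. Marker starts were regions annotated as the promoter of the gene or overlapping its RefSeq window. With no genome used here, sequences are shown only inside RefSeq windows and the planned motif scan was not run. Figures were drawn with matplotlib 3.10.9.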

Additional observations from a re-analysis of the deposited data

How the results depend on the processing

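Of the 20 largest changes, 10 kept their call and direction in all 14 other fits, and none reversed. The count of changed Sox regions (143; 54 higher, 89 lower) was within 1.5 times under DESeq2 size factors, total-count scaling, limma-voom, a minimum of 10 counts, no filter, autosomes alone, the 1 kb and exon rules, DESeq2's test (195; 80 and 115), and the count of overlapping regions once (142), an alternative added after seeing the data. The 1 kb rule, over 1 kb from every RefSeq start, also dropped the 102 Sox regions on chromosome 18, for which no start distance was set. At an adjusted p under 0.01 the count of changed Sox regions was 36 (9 higher, 27 lower), and under 0.1 it was 265 (133 higher). With forkhead names allowed beside Sox it was 284 (88 and 196). Leaving out 1 library gave 20 to 228 in all, 3 to 136 higher and 17 to 92 lower, and a median log2 fold change of -0.01 to 0.14. Counts at list genes were 1 with DESeq2 size factors, 2 with DESeq2's test, 2 at an adjusted p under 0.1 and 0 to 2 without 1 library. The P0 minus E14.5 difference in the share of distal counts was 0.0156 percentage points, and -0.0289 to 0.0441 without 1 library: its sign turned when E14.5 replicate 1 was left out (-0.0289) and when P0 replicate 2 was (-0.0285). Without the chromosome 8 span, also added after seeing the data, it was 0.0280. With the replicate number as a block 118 regions were called (41 and 77), 112 of them shared with the fit without it, and no count moved by over 1.5 times. Deviations of same-numbered libraries correlated at 0.07, -0.14 and 0.08, so the numbers were not taken as pairs. The median count per Sox region was 92 to 147 per library, and the called loss between Lrfn5 and Fscb rested on 10 to 22 counts per P0 library. The cause of the dependence on single libraries was not tested.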

Other observations

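Of the called Sox regions, 3 lay in the wide interval between Igfbp7, a secreted protein that binds growth factors, and Adgrl3, an adhesion receptor, a pattern picked out after the values were seen. On chromosome 5, from 77436165 to 80830168, it held 10 Sox regions, and the 3 called were all higher at P0, where over all regions 4.73% were called and 1.79% were higher. They lay at chr5:77761870-77763456, chr5:77943145-77944421 and chr5:80827950-80830168, with log2 fold changes of 0.86, 1.06 and 1.10 (edgeR adjusted p of 0.0405, 0.0410 and 0.0261). Each lost its call without E14.5 replicate 3 or P0 replicate 1. Among all 33 distal regions of the interval 5 were called, 3 higher and 2 lower.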
